A study of Mus musculus with 2 samples.

Results

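Endothelial cells (ECs) close the vessel wall with junction proteins, and 9 genes of this barrier were followed here in mouse lungs 6 h after melanoma cells had been injected. They are Cldn5, Ocln, Tjp1, Cdh5, Esam, F11r, Jam2, Jam3 and Plvap, taken by symbol from the 32285 genes of the deposited matrices, and each symbol matched 1 gene. Tight junctions seal the space between neighbouring cells with claudins, occludin and junctional adhesion molecules that bind scaffold proteins inside the cell. Adherens junctions hold the cells together through VE-cadherin and its catenins. Plvap differs from the rest: it builds the diaphragms of caveolae and fenestrae, through which molecules cross the cell rather than pass between cells.

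The control group was the lungs of wild-type C57BL/6 mice injected with phosphate-buffered saline (PBS), and the B16-F10 group was the lungs of wild-type C57BL/6 mice given 400000 B16-F10 cells in 100 µl through the tail vein. B16-F10 cells come from a melanoma of mouse skin, and they had been dyed green before injection. The labels give 2 mice per treatment, and the study's methods give another number for the pools, so the number of animals behind each library is not settled. Cells carrying Pecam1 on their surface and lacking Ptprc were sorted, dyed melanoma cells from the injected lungs were added to the B16-F10 library, and cells of all mice of 1 treatment were pooled, so that each group is 1 library. Every difference below therefore compares 2 libraries, without a test, and the intervals cover counting error only. Per the study's methods the injected mice were young adult males.

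The control library held 85794655 unique molecular identifiers (UMIs, each a captured RNA molecule) and the B16-F10 library 104978816. A cell entered the analysis with between 1000 and 5000 genes and less than 20% of its UMIs from mitochondrial genes. Among barcodes with at least 300 genes, 36 occurred in both libraries, and 18 of the kept cells in each had such a barcode. Cells were clustered without the 9 genes and without the gene lists used below, and classes were named from markers. General capillary (gCap)-like ECs numbered 4879 in the control and 4476 in the B16-F10 library, and aerocyte capillary (aCap)-like ECs 1450 and 969. Artery-like ECs numbered 196 and 136, vein-like ECs 285 and 286, and lymphatic (LEC)-like ECs 57 and 51. All 8 gCap markers, all 8 aCap markers and all 8 vein markers passed the naming rule in their own cluster, as did 7 of 8 artery and 7 of 8 LEC markers. Median UMIs per cell were higher in the B16-F10 library in every class, for example 7312 against 8444 in gCap-like and 9140.5 against 11343 in aCap-like cells. The mitochondrial share of UMIs was higher in the B16-F10 library in all 5 classes (2.11% and 2.49% in gCap-like ECs). The share of the nuclear RNA Malat1 was lower in 4 of the 5 (4.71% and 3.93% in artery-like ECs, but 3.47% and 3.84% in LEC-like ECs), and the part of either in the differences below was not tested. Levels are UMIs of a gene per 1000000 UMIs of its class sum (CPM), with exact Poisson 95% intervals, and each ratio divides the B16-F10 level by the control level, is given in log2 units and carries an exact conditional binomial 95% interval. A gene was counted as higher or lower where the ratio was at least 0.3219 from 0 in log2 units (a ratio of 5 to 4), its counting interval excluded 0 and both sums together held at least 50 UMIs.

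In gCap-like ECs, the largest class, Esam was higher and Ocln was lower in the B16-F10 library, while Cdh5, the adherens junction cadherin, was at the same level within 1%. F11r lay just inside the limit. In aCap-like ECs Cldn5 and Plvap were higher, in artery-like ECs Esam and Plvap, and in LEC-like ECs Cldn5 and Plvap. None of the 9 passed the limit in vein-like ECs. Over all ECs summed, Ocln alone passed it, on the lower side (67.2 and 46.0 CPM), beside 15.8% higher and 21.1% lower of all genes. The number of junction genes past the limit in gCap-like ECs, 1 higher and 1 lower of 9, stood beside 14.9% higher and 19.2% lower (34.1% in either direction) of all 13250 measured genes, so their share of 22.2% was not above the background.

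**Figure D1:**
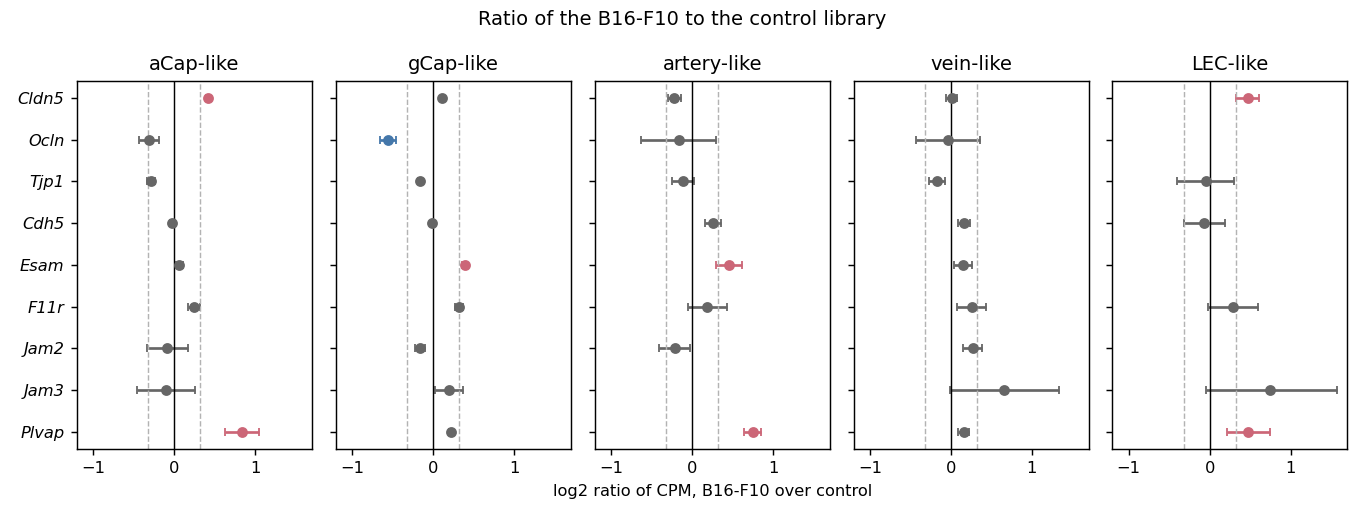
Log2 ratio of CPM in the B16-F10 library over the control library (x axis) for the 9 junction and barrier genes (y axis) in 5 EC classes, with counting intervals. Dashed lines stand at the limit, red points are higher and blue points lower past that limit, and genes under 50 UMIs are left out. Ocln in gCap-like ECs (-0.55) is the only point past the limit on the lower side.

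The genes differ widely in length, and 4 of them have entries in the RefSeq promoter table of GRCm38.p6: Cldn5, Ocln, Tjp1 and F11r. The promoters of 3 are shown because they belong to a gene that was higher in aCap-like ECs (Cldn5), a gene that was lower in gCap-like ECs (Ocln, first of its 2 entries) and a gene at the limit in gCap-like ECs (F11r). Each is the 250 bases before the start that RefSeq gives, written along the strand of the gene, and the F11r window reaches into the first bases of the gene as GENCODE places it. Capitals mark the ETS core CCGGAA, the CCAAT box CCAAT and the GC box GGGCGG on either strand.
Cldn5: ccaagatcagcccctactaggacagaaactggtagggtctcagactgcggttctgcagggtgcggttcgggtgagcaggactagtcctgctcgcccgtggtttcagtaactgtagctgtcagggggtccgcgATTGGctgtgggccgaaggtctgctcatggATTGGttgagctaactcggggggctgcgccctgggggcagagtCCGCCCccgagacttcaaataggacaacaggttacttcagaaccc
Ocln: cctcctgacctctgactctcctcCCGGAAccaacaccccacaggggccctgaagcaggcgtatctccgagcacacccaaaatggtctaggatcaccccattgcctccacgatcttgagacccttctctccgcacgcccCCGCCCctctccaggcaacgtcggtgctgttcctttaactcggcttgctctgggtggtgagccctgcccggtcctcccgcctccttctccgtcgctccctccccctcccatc
F11r: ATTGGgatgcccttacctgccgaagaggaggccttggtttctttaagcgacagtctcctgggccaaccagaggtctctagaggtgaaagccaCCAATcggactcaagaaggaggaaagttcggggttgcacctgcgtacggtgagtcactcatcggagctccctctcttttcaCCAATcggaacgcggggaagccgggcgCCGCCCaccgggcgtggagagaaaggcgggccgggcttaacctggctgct

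These windows lie at chr16:18776597-18776846 on the plus strand (Cldn5), chr13:100552719-100552968 on the minus strand (Ocln) and chr1:171437311-171437560 on the plus strand (F11r) of GRCm38.p6. The CCAAT box occurred 2 times before Cldn5 and 3 times before F11r, and 33.8% of all 32851 promoters of the table hold it. The window of Ocln held 1 ETS core, which 12.0% of promoters hold, and the GC box, held by 32.7%, was present in each of the 4 genes. The letters ACAAT (SOX), GTAAACA (FOX) and TTCNNNGAA (STAT) matched none of these 4 windows, and 27.7%, 3.17% and 7.02% of promoters hold them. The windows were searched on both strands, and a match of letters is not a binding site. The second Ocln entry, at chr13:100552499-100552748, held a CCAAT box and a GC box but no ETS core, so the statements on Ocln hold for its first entry. The Tjp1 window, at chr7:65371245-65371494, lies inside the span of the gene as GENCODE places it. Cdh5, Esam, Jam2, Jam3 and Plvap have no entry in that table.

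The first comparison describes where along the vessel tree each gene was found. Cldn5 (chr16:18776847-18778262) encodes claudin-5, the main claudin of blood vessel ECs, and Ocln (chr13:100496507-100552718) encodes occludin, a 4-pass membrane protein of tight junctions. Cldn5 was highest in aCap-like ECs, at 2966 CPM (interval 2937 to 2996) in the control and 3950 CPM (3913 to 3988) in the B16-F10 library. In gCap-like ECs it was 2026 and 2190 CPM, in artery-like ECs 1942 and 1670, in LEC-like ECs 1484 and 2059, and in vein-like ECs, the lowest class, 1192 and 1199 CPM. The aCap-like level was 2.49 times the vein-like level in the control and 3.29 times in the B16-F10 library, and the intervals of gCap-like and artery-like ECs overlapped in the control library, those of gCap-like and LEC-like ECs in the B16-F10 library. Ocln was also highest in aCap-like ECs, at 107 CPM in the control and 85.9 CPM in the B16-F10 library, against 56.7 and 38.6 CPM in gCap-like, 62.2 and 55.7 in artery-like, and 35.7 and 34.8 in vein-like ECs. Artery-like and gCap-like intervals overlapped in the control, and gCap-like and vein-like intervals in the B16-F10 library. LEC-like ECs held 1 Ocln UMI in each library, so occludin RNA was near absent from lymphatic cells at this depth.

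Tjp1 (chr7:65296165-65527781) encodes ZO-1, the scaffold that ties tight junction proteins to actin. It was highest in gCap-like ECs in both libraries, at 817 CPM (808 to 827) and 731 CPM (723 to 740). It followed in artery-like ECs at 623 and 577 CPM, in aCap-like ECs at 610 and 499 CPM and in vein-like ECs at 541 and 481 CPM, and was lowest in LEC-like ECs at 295 and 285 CPM. Claudin-5 and occludin RNA thus peaked in aCap-like cells while the RNA of their scaffold peaked in gCap-like cells. The intervals of artery-like and aCap-like ECs overlapped in the control, and those of aCap-like and vein-like ECs in the B16-F10 library.

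Cdh5 (chr8:104101625-104144511) encodes VE-cadherin, the adhesion protein of endothelial adherens junctions. Its order was the same in both libraries with no overlap of intervals: aCap-like (2633 and 2584 CPM), gCap-like (1771 and 1760), artery-like (1084 and 1298), vein-like (864 and 966) and LEC-like (566 and 540 CPM). The highest class was 4.65 times the lowest in the control and 4.78 times in the B16-F10 library.

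Esam, F11r, Jam2 and Jam3 encode immunoglobulin-type adhesion molecules of the junction, and their vessel patterns differed from each other. Esam (chr9:37528078-37538319) encodes endothelial cell-selective adhesion molecule, and it was near absent from lymphatic cells. It was 806 and 842 CPM in aCap-like, 514 and 673 in gCap-like, 395 and 541 in artery-like and 402 and 446 in vein-like ECs, but only 6 UMIs were counted in the LEC-like cells of each library (12.8 and 12.5 CPM). The amount that free RNA could supply to LEC-like cells was 8.67 and 7.00 CPM, close to those levels. F11r (chr1:171437535-171464603), which encodes JAM-A, went the other way and was highest in LEC-like ECs, at 346 CPM (295 to 404) and 422 CPM (366 to 484). It was 239 and 284 CPM in aCap-like, 191 and 218 in artery-like, 174 and 217 in gCap-like and 149 and 178 CPM in vein-like ECs, and the artery-like and gCap-like intervals overlapped in both libraries.

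Jam2 (chr16:84774123-84825928), which encodes JAM-B, separated the larger vessels from the capillaries. Its level was 355 CPM (326 to 387) in artery-like and 352 CPM (331 to 374) in vein-like ECs of the control library, with overlapping intervals, against 110 CPM in gCap-like, 22.8 CPM in aCap-like and 2.14 CPM (1 UMI) in LEC-like ECs. The B16-F10 library had 307 CPM in artery-like, 424 in vein-like, 98.7 in gCap-like and 21.4 in aCap-like ECs, and again 1 UMI in LEC-like ECs. Jam3 (chr9:27097384-27155421), which encodes JAM-C, was the sparsest member in blood vessel ECs, between 9.26 and 16.8 CPM in the 4 blood vessel classes of both libraries, where most neighbouring classes overlapped. In LEC-like ECs it was 47.0 CPM (29.4 to 71.1) and 79.0 CPM (55.9 to 108), 5.07 times and 7.34 times the lowest class.

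Plvap (chr8:71497765-71511752) encodes plasmalemma vesicle-associated protein. It was high in gCap-like ECs (1253 and 1455 CPM), vein-like ECs (1100 and 1226) and artery-like ECs (817 and 1372), intermediate in LEC-like ECs (421 and 586), and nearly missing from aCap-like ECs (23.8 and 42.4 CPM). The gap between gCap-like and aCap-like cells was 52.7-fold in the control and 34.3-fold in the B16-F10 library. Of all 9 genes this was the sharpest split between the 2 capillary types, and by share of cells at equal depth (2000 UMIs) the vein-like class was highest, with 85.3% and 88.5% of cells against 81.4% and 87.9% in gCap-like ECs. Plvap overlaps Gtpbp3, on the opposite strand, whose own level was 14.2 to 17.7 CPM in the 2 capillary classes, and reads of the pair can be told apart only if counting used strand, which is not stated. The antisense partners of Cdh5 (Gm29682) and Jam3 (Gm48796) were at most 7.10 and 0.662 CPM.

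**Figure D2:**
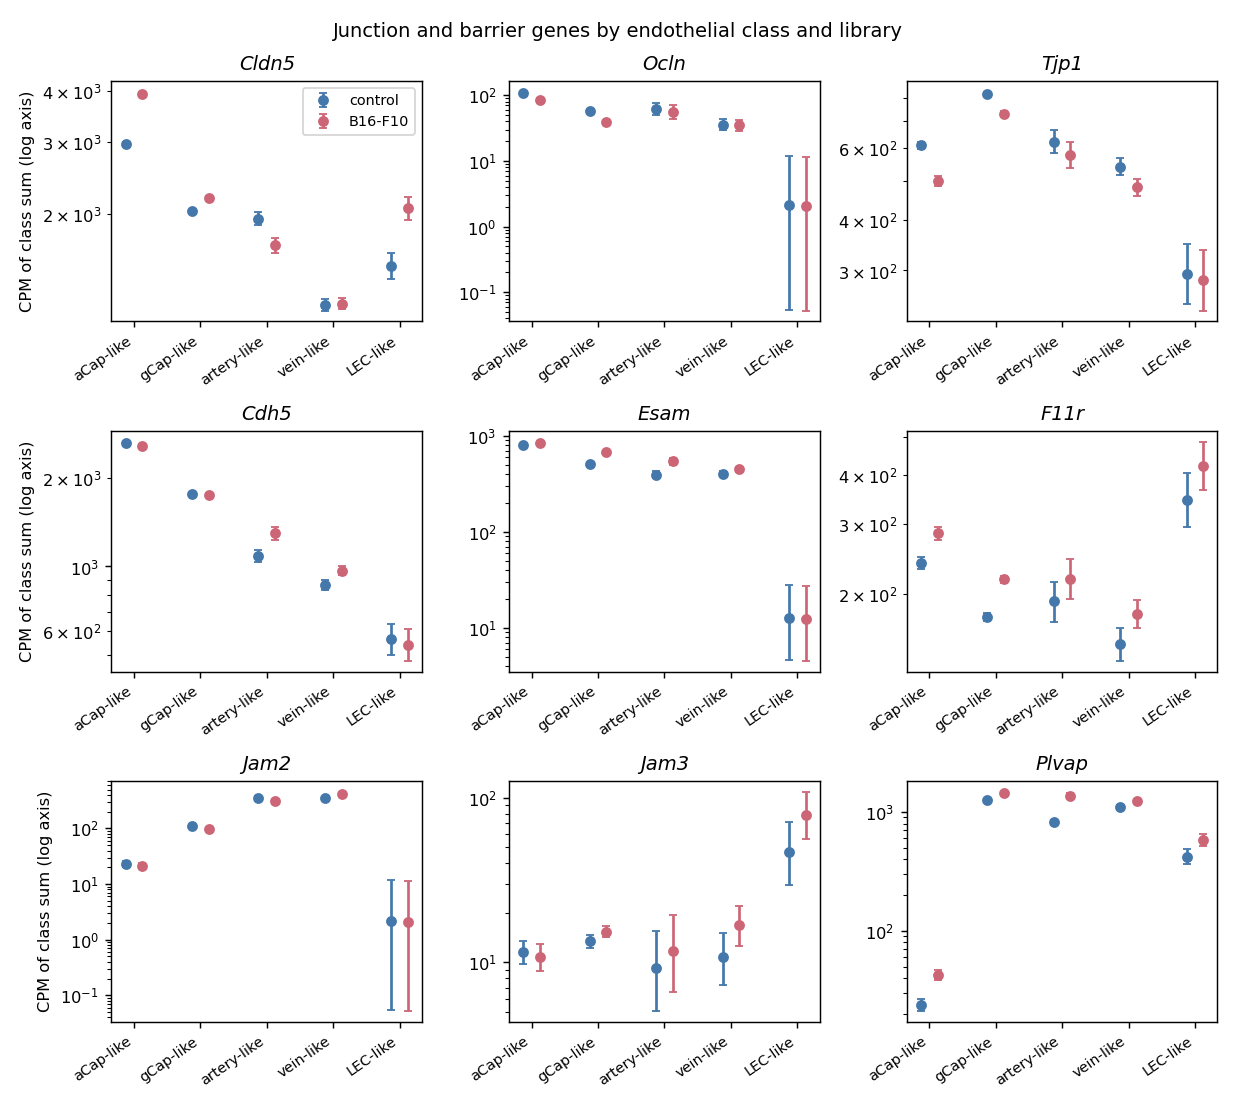
CPM (y axis, log scale) of the 9 genes in 5 EC classes (x axis) in the control library (blue) and the B16-F10 library (red), with exact Poisson 95% intervals. Cldn5, Ocln, Cdh5 and Esam are highest in aCap-like ECs, Tjp1 and Plvap in gCap-like ECs, F11r and Jam3 in LEC-like ECs, and Jam2 in artery-like and vein-like ECs.

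Over the 10 sums of 5 classes and 2 libraries, log2(CPM + 1) of Esam and Ocln rose and fell together (Pearson r = 0.98), and both ran opposite to Jam3 (r = -0.94 and -0.95). Jam2 and F11r also ran opposite to each other (r = -0.92). The genes most like each member over the same 10 sums were Gsr, Hccs and Ptp4a3 for Cldn5 (r = 0.96 for each), Nrp1, Ifi203 and Ankrd33b for Ocln (0.99 to 1.00), and Adgra3, Kremen2 and Celsr2 for Tjp1 (0.97 to 0.99). For Cdh5 they were Hopx, Tmco1 and Eif4g3 (0.99), for Esam Ankrd33b, Ly6a and Gm12216 (0.99 to 1.00), and for F11r Ccdc92, Ide and Unc5b (0.96 to 0.97). For Jam2 they were Gm49708, Heg1 and Lifr (0.98 to 0.99), for Jam3 Npnt, Abhd17b and Gng11 (0.98), and for Plvap Itga5, Frmd4a and Gm49267 (0.98 to 0.99). These correlations describe 10 sums from 2 libraries, and several rest on the LEC-like class, which stands apart.

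The second comparison set the B16-F10 library against the control in gCap-like ECs. Esam was 514 CPM (507 to 522) in the control and 673 CPM (665 to 681) in the B16-F10 library, a log2 ratio of 0.39 (0.36 to 0.42). F11r went from 174 CPM (interval 170 to 179) in the control to 217 CPM (interval 213 to 222), which is a ratio of 0.32 (0.27 to 0.37) that missed the limit by less than 0.01. Ocln was 56.7 CPM (54.3 to 59.2) in the control and 38.6 CPM (36.7 to 40.6) in the B16-F10 library, a log2 ratio of -0.55 (-0.65 to -0.46). Esam was thus higher and occludin lower in the library from the injected lungs.

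The other 6 genes stayed inside the limit in gCap-like ECs. The log2 ratio was 0.22 (0.20 to 0.23) for Plvap, 0.19 (0.02 to 0.37) for Jam3 and 0.11 (0.10 to 0.13) for Cldn5. It was -0.01 (-0.02 to 0.01) for Cdh5, -0.16 (-0.18 to -0.14) for Tjp1 and -0.16 (-0.22 to -0.09) for Jam2. The median of the 9 genes was 0.11, against -0.04 over all measured genes. A UMI of F11r was found in 66.5% of control and 77.9% of B16-F10 cells, and after thinning every cell to 2000 UMIs in 28.5% and 35.7%. Thinning left out 62 control and 29 B16-F10 cells. For Ocln the thinned shares were 10.7% and 7.98%, and for Esam 63.2% and 71.4%. In the melanoma-like cells of the B16-F10 library, which should lack them, thinned shares were 4.50% for F11r, 0.901% for Ocln and 5.41% for Esam.

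The 2 libraries did not fill the gCap-like class alike. A subgroup led by Lalba, Tmem252 and Adamts9 gave 64 control and 997 B16-F10 cells, a subgroup led by Gclm and Tox3 gave 424 and 79, and a subgroup with a median of 4245 UMIs, the fewest in the class, gave 716 and 414. In the first clustering the Lalba-led cluster had 3 of 8 gCap markers, short of the naming rule. Its cells joined the gCap-like class in the second clustering. Within each of the 7 subgroups the ratio of Esam was above 0 (0.15 to 0.47), and so were those of F11r (0.12 to 0.43) and Plvap (0.08 to 0.31). Ocln and Tjp1 were below 0 in all 7, at -0.64 to -0.10 and -0.27 to -0.06. Cldn5 was above 0 in 5 and Cdh5 in 3. Esam reached 906 CPM in the B16-F10 cells of the Lalba-led subgroup, against 499 to 723 CPM in the B16-F10 cells of the other 6.

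Markers of other cell types were summed in gCap-like ECs as a check on purity. From control to B16-F10, the 8 mural markers summed to 30.2 and 51.2 CPM, the 8 fibroblast markers to 7.93 and 14.7, the 8 epithelial markers to 347 and 369, the 8 myeloid markers to 14.1 and 28.5 and the 8 melanoma markers to 26.8 and 53.9 CPM. Of these 5 lists only the fibroblast marker Lum was at 0 in the B16-F10 library. The epithelial list includes Hopx, the gene most like Cdh5 over the EC class sums. The sum of that list was 1395 and 1343 CPM in aCap-like ECs, and what part of it is impurity was not tested. Neutrophil markers summed to 2.90 and 8.69, platelet markers to 21.3 and 23.8, lymphoid markers to 1.59 and 1.71, and red cell markers to 1225 and 1474 CPM. Without cells that held a UMI of any of the 56 such markers found in under 5% of ECs, which left 3590 and 2036 cells, Esam stood at 0.43 and Ocln at -0.57.

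The third comparison covered aCap-like ECs, where 2 of the 9 genes were higher and none lower, beside 17.8% higher and 18.1% lower of 11107 measured genes. Cldn5 was 2966 CPM in the control and 3950 CPM in the B16-F10 library, a log2 ratio of 0.41 (0.39 to 0.43). Plvap was 23.8 CPM (21.2 to 26.6) and 42.4 CPM (38.6 to 46.5), a log2 ratio of 0.84 (0.62 to 1.05). Both Plvap levels are low: barcodes with 1 to 100 UMIs, which hold free RNA, had 762 and 1080 CPM of Plvap, the estimated free RNA in aCap-like cells would supply 8.30 and 13.0 CPM, and the melanoma-like cells of the B16-F10 library, which are no ECs, held 24.6 CPM. After subtraction of that estimate the ratio was 0.93, and with doublets kept it was 0.29.

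Of the other 7 genes in aCap-like ECs, F11r stood at 0.25 (0.18 to 0.32), Esam at 0.06 (0.02 to 0.10) and Cdh5 at -0.03 (-0.05 to -0.004). Ocln stood at -0.31 (-0.43 to -0.19), just inside the limit, but at -0.61 with each cell thinned to 2000 UMIs and at -0.35 as a mean over cells, both past it. Tjp1 stood at -0.29 (-0.34 to -0.24), Jam2 at -0.09 (-0.34 to 0.16) and Jam3 at -0.10 (-0.46 to 0.26). A subgroup with a median of 4445 UMIs gave 498 control but 65 B16-F10 aCap-like cells, and the rest of the class numbered 952 and 904. In that larger rest Cldn5 was 3129 and 4006 CPM (0.36) and Plvap 26.0 and 42.0 CPM (0.69). In the low-UMI subgroup the ratio of Cldn5 was -0.17 and that of Plvap 1.93. Cdh5 was 2666 and 1899 CPM there (-0.49, -0.61 to -0.37) and Esam 695 and 453 CPM (-0.62, -0.87 to -0.37). In the larger rest Cdh5 stood at -0.01 and Esam at 0.03. Ocln (-0.51), Jam3 (-0.09), Tjp1 (-0.02), F11r (0.04) and Jam2 (0.40) had intervals that included 0 in the low-UMI subgroup. Red cell markers summed to 1991 CPM in the control and 977 CPM in the B16-F10 aCap-like cells, and their part in these ratios was not tested.

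In artery-like ECs, 8 of the 9 genes could be measured, and Esam and Plvap were higher, beside 12.7% higher and 11.5% lower of all genes (24.2% in either direction). Esam was 395 CPM (364 to 428) and 541 CPM (502 to 583), a log2 ratio of 0.46 (0.29 to 0.62), and Plvap was 817 CPM (772 to 864) and 1372 CPM (1309 to 1438), a log2 ratio of 0.75 (0.64 to 0.85). The 8 artery markers summed to 6217 CPM in the control and 4439 CPM in the B16-F10 artery-like cells, with 7 of 8 lower, and the red cell markers to 718 and 1037 CPM, and their part in these ratios was not tested. Against genes of like length Esam stood at 0.27, inside the limit, and Plvap at 0.61. Cdh5 stood at 0.26, F11r at 0.19, and Cldn5 at -0.22 (-0.30 to -0.14), the only class in which Cldn5 had a ratio clearly below 0. In vein-like ECs none of the 9 passed, beside 8.63% higher and 10.6% lower of all genes. The ratios were 0.27 (0.15 to 0.39) for Jam2, 0.26 (0.08 to 0.44) for F11r, 0.16 for both Cdh5 and Plvap, 0.15 for Esam, 0.01 for Cldn5, -0.04 for Ocln and -0.17 for Tjp1. Jam3, with 32 and 54 UMIs, stood at 0.65 with an interval from -0.005 to 1.33. The 5 red cell markers summed to 519 CPM in the control and 3499 CPM in the B16-F10 vein-like cells, and their part in these ratios was not tested.

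In LEC-like ECs, Cldn5 was 1484 CPM (1376 to 1599) and 2059 CPM (1933 to 2191), a log2 ratio of 0.47 (0.33 to 0.61). Plvap was 421 CPM (364 to 484) and 586 CPM (520 to 658), a log2 ratio of 0.48 (0.21 to 0.75). These were 2 of 6 measurable genes, beside 9.13% higher and 9.05% lower of all genes. F11r stood at 0.29 (-0.02 to 0.59), Jam3 at 0.75 (-0.05 to 1.58), Tjp1 at -0.05 and Cdh5 at -0.07, and Ocln, Jam2 and Esam could not be compared at this depth.

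F11r had a ratio between 0.19 and 0.32 in all 5 classes, and Tjp1 one between -0.29 and -0.05. Esam had its 2 ratios past the limit in gCap-like and artery-like ECs and 0.06 in aCap-like ECs. Whether the ratios differ between classes was not tested.

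A cluster of ECs without a vessel class lay almost wholly in the B16-F10 library, with 317 cells there and 10 in the control. Its leading genes were Hbegf, Inhbb, Tuba1c, Pdgfa and Fosl1, and since it comes from 1 library it cannot be told apart from that library. Cldn5 was 3727 CPM in these cells against 2190 CPM in the gCap-like cells of the same library, Cdh5 2163 against 1760, and F11r 357 against 217. Tjp1 was 195 CPM against 731, Ocln 14.0 against 38.6, Jam2 27.0 against 98.7 and Plvap 804 against 1455. Esam (645 against 673) and Jam3 (14.0 against 15.4) were alike. Claudin-5 and VE-cadherin RNA was thus above, and occludin and ZO-1 RNA below, the gCap-like level of the same library. The cluster depends on the settings. With ECs clustered again at resolution 0.24, and with doublets kept, no EC cluster was left without a vessel class. At 0.24 the gCap-like class of the B16-F10 library held 4790 cells in place of 4476.

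Clusters that carried EC markers with those of another cell type were left out of the classes and are given here as values only. In the clusters led by Cenpb and by Fabp4 the only other type that met the rule was red cells, with 4 and 3 of 5 markers. Red cell RNA was also present in the named classes. In the largest, led by Cenpb, Trp53inp2 and Cyb5r3 (295 and 756 cells), Ocln was 27.4 and 30.7 CPM and Esam 312 and 362 CPM. In a cluster led by the epithelial genes Sftpc, Scgb1a1 and Sftpa1 (89 and 140 cells), Tjp1 was 253 and 339 CPM, Cdh5 442 and 790 CPM and Esam 163 and 353 CPM. In a cluster led by the platelet genes Ppbp and Pf4 (229 and 240 cells), Esam was 465 and 577 CPM and Ocln 40.0 and 35.2 CPM, and in one led by Postn, Spp1 and Cox4i2 (142 and 162 cells) Esam was 473 and 552 CPM and Ocln 60.6 and 40.4 CPM. A cluster led by Fabp4, Rbp7, Timp4 and Tcf15 gave 173 control and 34 B16-F10 cells. There Jam2 was 517 and 680 CPM and Jam3 49.9 and 97.2 CPM, both above their levels in every blood vessel class, Ocln 2.04 and 4.63 CPM, and Plvap 136 and 847 CPM.

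The fourth comparison asked how the junction genes stood in gCap-like cells low and high in reactive capillary (rCap) genes, a set of 50 genes the study named as markers of a capillary state seen after injection. The study chose that list partly on these libraries, and 45 of its 50 genes were higher in the B16-F10 gCap-like cells, so it is no independent measure of injection. Every cell was thinned to 2000 UMIs, and the gCap-like cells of both libraries were split into 3 equal tertiles by the summed UMIs of the list. The lowest tertile held 2644 control and 444 B16-F10 cells, the middle tertile 1771 and 1317, and the highest tertile 402 and 2686.

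Esam followed the score in both libraries. In the control library it was 491, 571 and 654 CPM from the lowest to the highest tertile, a log2 ratio of highest over lowest of 0.41 (0.28 to 0.55), and in the B16-F10 library 495, 557 and 759 CPM, a ratio of 0.62 (0.47 to 0.76). Plvap did the same, with 1123, 1381 and 1626 CPM in the control (0.53, 0.45 to 0.62) and 1088, 1409 and 1538 CPM in the B16-F10 library (0.50, 0.40 to 0.60). F11r was 160, 185 and 192 CPM in the control (0.26, 0.002 to 0.51) and 168, 211 and 247 CPM in the B16-F10 library (0.56, 0.31 to 0.81). Tjp1 ran the other way, with 828, 770 and 746 CPM in the control (-0.15) and 855, 801 and 682 CPM in the B16-F10 library (-0.33, -0.44 to -0.21). Ocln had 321 and 36 UMIs in the outer tertiles of the control, and its ratios (-0.44 and -0.28) had intervals that included 0. Cldn5 and Cdh5 stayed between -0.09 and 0.14 in both libraries.

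In the B16-F10 library 3 of the 9 genes were thus higher and 1 lower in the highest tertile, beside 10.1% higher and 12.0% lower of 9113 measured genes, and in the control library 2 were higher and none lower, beside 7.59% and 8.26% of 9164 genes. For Esam and Plvap the libraries were closer to each other within a tertile than in the class as a whole. The ratio of B16-F10 over control for Esam was 0.01 (-0.14 to 0.16) in the lowest, -0.04 (-0.13 to 0.06) in the middle and 0.21 (0.08 to 0.35) in the highest tertile, against 0.33 in the thinned class as a whole. For Plvap it was -0.05, 0.03 and -0.08. Only F11r in the highest tertile passed the limit at this depth, at 0.37 (0.12 to 0.62), and Ocln stood at -0.36, -0.21 and -0.20, with intervals that included 0. In cells thinned to 4000 UMIs F11r in the highest tertile stood at 0.21, inside the limit, and Ocln in the middle tertile passed it at -0.33 (-0.57 to -0.08). At that depth the highest over the lowest tertile of the B16-F10 library was 0.27 for F11r and -0.24 for Tjp1, both inside the limit. For the ratio of the libraries within a tertile, and for all ratios at 4000 UMIs, the share of all genes past the limit is not given here. The few calls among them therefore have no background beside them. The tertiles hold very unequal shares of the 2 libraries, and what part the score itself has in these differences was not tested.

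**Figure D3:**
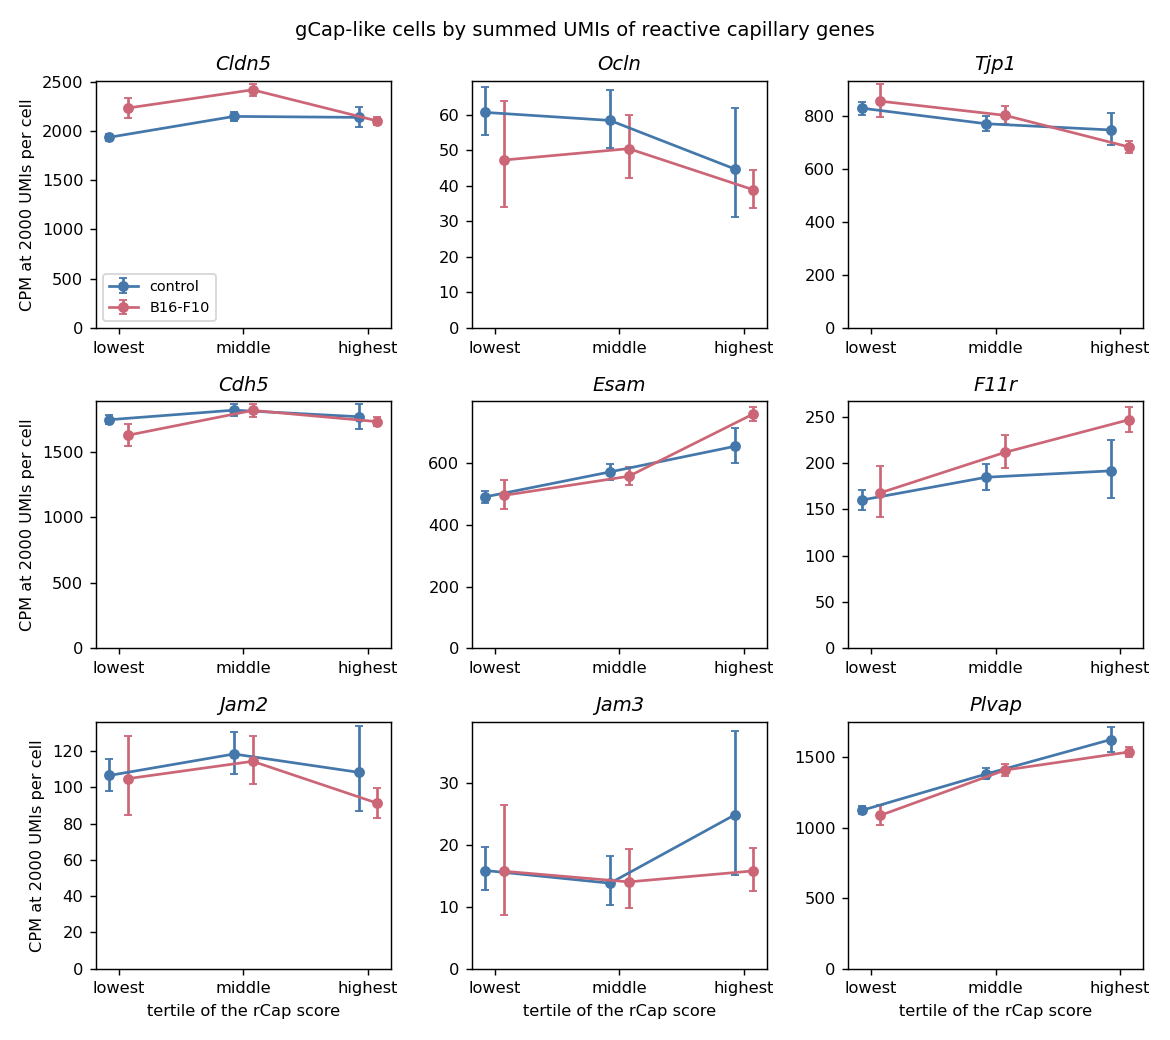
CPM at 2000 UMIs per cell (y axis, from 0) of the 9 genes in gCap-like cells of the lowest, middle and highest tertile of the summed rCap genes (x axis), for the control (blue) and B16-F10 (red) libraries, with exact Poisson 95% intervals. Esam and Plvap climb with the score in both libraries, and the highest tertile of the B16-F10 library has the most F11r (247 CPM).

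Other junction genes of gCap-like ECs were described through 7 lists with 93 genes, 83 of them measured. Of these 18 were higher and 13 lower in the B16-F10 library, a share of 37.3% past the limit against 34.1% of all genes, and their median ratio was 0.02 against -0.04.

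Among 15 adherens junction genes 3 were higher and 1 lower, with a median ratio of -0.06. Vcl, the vinculin that joins catenins to actin, went from 183 to 261 CPM (0.51), the adhesion molecule Nectin2 from 3.17 to 7.95 CPM (1.32), and the phosphatase Ptprj from 44.8 to 62.5 CPM (0.48). Ptprb, which encodes the phosphatase VE-PTP bound to VE-cadherin, went from 3545 to 2570 CPM (-0.46). The catenins stayed inside the limit, at 0.31 for Ctnnb1, -0.23 for Ctnna1, -0.31 for Ctnnd1 and -0.16 for Jup. Of 16 tight junction genes 8 were measured: Cldn12 was higher at 4.60 and 6.98 CPM (0.60), and the polarity and scaffold genes Pard3 at 357 and 237 CPM (-0.59) and Magi1 at 115 and 90.3 CPM (-0.35) were lower.

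Gap junctions connect the cytoplasm of neighbouring cells, and 3 of 5 measured genes of that list were higher with none lower. Gja4, which encodes connexin 37, went from 148 to 245 CPM (0.73), Gja1 (connexin 43) from 2.60 to 10.99 CPM (2.08) and Gja5 (connexin 40) from 3.31 to 8.41 CPM (1.34). Gja1 (95 and 430 UMIs), Gja5 (121 and 329 UMIs) and the adherens gene Nectin2 (116 and 311 UMIs) were sparse. The part of free RNA or of other cell types in their ratios was not tested. Of the caveola and transcytosis genes, related to Plvap by role, 1 was higher and 3 lower of 9 measured. Cav1 went from 1573 to 1248 CPM (-0.33), Cav2 from 645 to 493 CPM (-0.39) and Cavin2 from 1668 to 1266 CPM (-0.40), while Cavin3 went from 63.2 to 82.7 CPM (0.39). Plvap itself was at 0.22.

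Small GTPases set the tension on junctions, and 4 of 20 such genes and their regulators were higher and 2 lower. Rhoc went from 140 to 338 CPM (1.27), Rhob from 138 to 284 CPM (1.05), Rap1b from 263 to 379 CPM (0.53) and the Rap effector Rasip1 from 361 to 482 CPM (0.42). Arhgap29, a GTPase-activating partner of Rasip1, went from 670 to 435 CPM (-0.62), and the Rap activator Rapgef2 from 289 to 218 CPM (-0.40). Among 12 kinases and receptors, 3 were higher and 3 lower: the sphingosine receptor S1pr1 (0.54), the thrombin receptor F2r (0.88) and Src (0.93, with 30 and 61 UMIs) were higher, and Tek, which encodes the angiopoietin receptor TIE2 (-0.51), Ramp2 (-0.46) and Calcrl (-0.53), which form the adrenomedullin receptor, were lower. Among 14 endothelial transcription factors Klf2 (0.37), Klf4 (0.45) and Tcf4 (0.38) were higher and Erg (-0.44) and Sox18 (-0.52) lower, and the list median was 0.00.

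**Figure D4:**
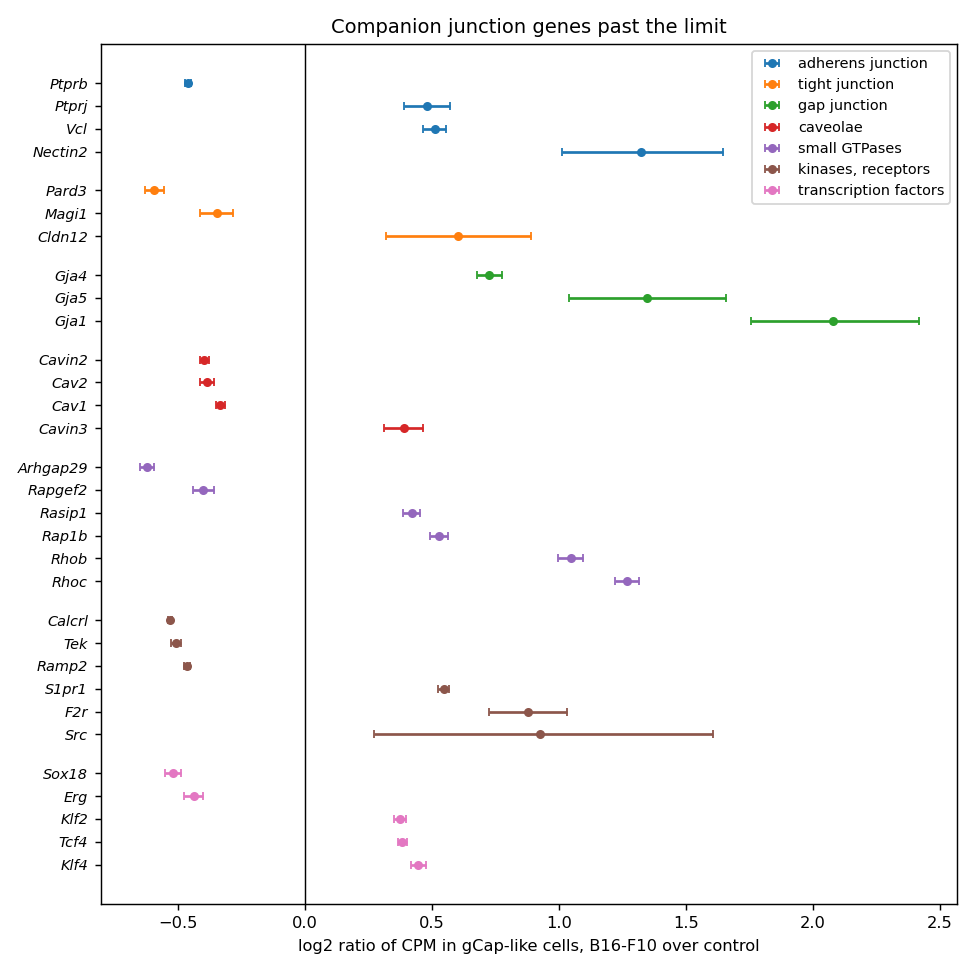
Log2 ratio of CPM in gCap-like cells, B16-F10 over control (x axis), of the 31 companion genes past the limit (y axis), coloured by list, with counting intervals. All 3 gap junction genes lie above 0, at 0.73 to 2.08, and 3 of the 4 caveola genes lie below 0.

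In aCap-like ECs the same 7 lists had 8 genes higher and 18 lower of 74 measured, 35.1% in either direction beside 35.9% of all genes, and a median ratio of -0.11 beside 0.007 over all genes. Rhob (1.21), Rhoc (1.05), Cavin3 (0.95) and Gja4 (1.27) were higher there too, and Pard3 (-0.76), Magi1 (-0.64), Cav1 (-0.48), Cav2 (-0.41) and Arhgap29 (-0.46) lower. Other genes had calls unlike those in gCap-like ECs. Ptprj was lower (-0.42), Sox18 (0.17), Tek (0.13) and Ptprb (0.29) were inside the limit, and of the catenins Ctnnb1 was higher (0.34) and Ctnnd1 lower (-0.43).

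In both capillary classes the ratio moved with gene length across the whole table. In gCap-like ECs the quintile of genes with the shortest span (0.168 to 7.36 kb) had a median log2 ratio of 0.11 and the quintile with the longest (69.1 to 2961 kb) one of -0.20, and in aCap-like ECs the medians were 0.25 and -0.28. In artery-like ECs they were 0.23 and -0.19, in vein-like ECs 0.07 and -0.08, and in LEC-like ECs -0.04 and 0.05. Ocln spans 56.2 kb and Tjp1 232 kb, while Cldn5 spans 1.42 kb, Esam 10.2 kb and Plvap 14.0 kb. Set against genes of like length in 20 bins, Ocln in gCap-like ECs stood at -0.42 and Esam at 0.33, and Tjp1 turned to 0.10. F11r (27.1 kb) stood at 0.36 and Jam3 (58.04 kb) at 0.32 by the same measure, both past the limit, so that 4 of 9 genes were past it. The share of all genes past the limit by this measure is not given here, so that count has no background beside it. In aCap-like ECs Cldn5 stood at 0.14 and Plvap at 0.73. Whether UMIs from introns were counted, which adds to long genes, is not stated in the sources used here, and the part of length in these ratios was not tested.

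**Figure D5:**
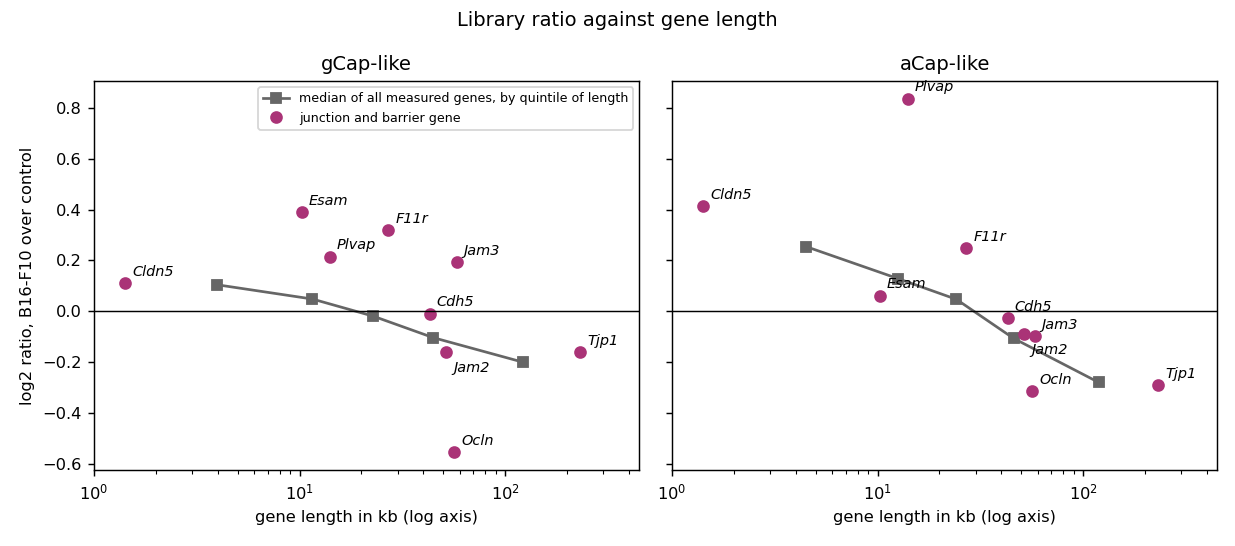
Log2 ratio, B16-F10 over control (y axis), against gene length in kb (x axis, log scale) in gCap-like and aCap-like ECs. Grey squares are medians of all measured genes by quintile of length, and purple points are the 9 genes. The grey line falls from 0.11 to -0.20 in gCap-like ECs and from 0.25 to -0.28 in aCap-like ECs.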

How the data were processed

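The authors deposited raw counts of UMIs per gene and barcode for all barcodes, and the file headers name Cell Ranger 7.2.0 as the program that wrote them. The submitters' processing notes list Cell Ranger 7.2.0, Seurat 4.4.0 and mm10. The study's methods give an earlier version of Cell Ranger, and the labels name a v2 kit although 1597090 and 1779952 barcodes are listed, more than that kit has, so both are unsettled. Gene positions come from GENCODE M21 on GRCm38, which holds 32158 of the 32285 gene IDs. The number of UMIs sets the width of each interval. Doublets were called with Scrublet (scanpy 1.11.5) at 0.8% per 1000 cells. Cells were clustered with leidenalg 0.10.2 on 30 principal components at resolution 0.8, and ECs again on 24 components at 0.12. A class needed at least 3 markers and 50% of its list. The thresholds of this rule and the second clustering were chosen once a first clustering was known. The 9 genes and all lists were chosen with earlier results of these data known.

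Named companion genes were those past 1.25-fold in gCap-like ECs, at most 4 each way per list. Free RNA was the profile of barcodes with 1 to 100 UMIs, scaled by 3 surfactant genes. With 1 library per group no test was run. Alternatives covered cell filters, doublets, resolution, scaling, thinning, free RNA, purity, low-UMI clusters, fold and gene length. The ratio was tested on simulated counts with known folds before use.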

Additional observations from a re-analysis of the deposited data

Results flagged for a closer look

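Plvap RNA outside cells differed between the libraries. In barcodes with 1 to 100 UMIs, which are cells of no class and served only to estimate free RNA, Plvap was 762 CPM (4324 UMIs) in the control and 1080 CPM (3706 UMIs) in the B16-F10 library, a log2 ratio of 0.502 (0.438 to 0.566), above the level in the control library. Ocln was 53.4 and 31.5 CPM there (-0.76), and the ratios of the remaining genes lay between -0.32 (Cdh5) and 0.12 (Esam). The share of all genes past the limit in these barcodes is not given here, so whether Plvap and Ocln stand out among them is not known. The cause was not tested.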

How the results depend on the processing

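No paired analysis was possible because there is 1 library per group. Of 660 recomputed values, 566 stayed within the counting interval (for a count, within 1.5 times) and 93 moved by more, and 550 and 74 of these kept their sign. Over the alternatives 9 calls at the limit were lost and 38 were gained. Of the values past the limit 1 turned its direction: Plvap in LEC-like ECs, at -0.59 in the 20 and 4 cells without a UMI of any of 64 markers of other cell types, 56 of which were found in under 5% of ECs. The 64 markers include Hopx, which followed Cdh5 over the EC classes, and whether this subset measures purity alone was not tested. The 2 genes past the limit in gCap-like ECs became 1 with all ECs summed, 0 at 1.5-fold and 4 against genes of like length. The 2 in aCap-like ECs became 1 with doublets kept, with all ECs summed, at 1.5-fold and against genes of like length. In the 74 and 6 aCap-like cells without a UMI of those markers the count was again 2, but of other genes: Cldn5 stood at 0.01, Plvap could not be measured, and Cdh5 (-0.62) and F11r (-1.98) were lower. The 4 calls in artery-like, vein-like and LEC-like ECs became 8 when cells from 500 genes upward were let in, 7 with doublets kept and 7 against genes of like length, where artery-like Esam (0.27) lost its call and artery-like Cldn5 (-0.49) and Cdh5 (0.33) passed the limit, and the 4 members past the limit between the outer rCap tertiles of the B16-F10 library became 2 at 4000 UMIs per cell. At 1.5-fold Ocln and Esam in gCap-like ECs both lost their calls. Under the alternatives that keep the limit Ocln stayed past it (-0.81 to -0.42), and Esam did except in the sum of all ECs (0.26 to 0.66 in all). F11r, just inside it, ranged from 0.29 to 0.60. The length, second-resolution (0.24), 5000-UMI and rare-marker alternatives were chosen after seeing the data. The share of all genes past the limit is not given here under any alternative.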
